A study of Homo sapiens with 2 samples.

Results

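The genes described here are the 10 members of a list for the stress response run by the transcription factors ATF4 and CHOP (gene DDIT3). They are ATF4, DDIT3, ATF3, CEBPB, TRIB3, DDIT4, SESN2, CHAC1, ASNS, and the noncoding RNA VLDLR-AS1. Whether VLDLR-AS1 belongs to this response was not tested. All 10 were followed on 2 arrays of HepG2 cells, a widely used human liver cancer line with many traits of hepatocytes. One culture received dimethyl sulfoxide (DMSO), the solvent of the extract, and the other received hawk tea extract (HTE), an ethanol extract of Litsea coreana leaves dissolved in DMSO, both for 24 h. The sample labels give 200 μg/mL of HTE, whereas the name under which the HTE array was deposited carries 300. The published text names the higher dose for this array experiment, so the sources differ and the dose is not settled here. A probe was taken as a member when it was no control spot on either array and its RefSeq transcript belonged to one of the 10 genes, which found 17 of the 50599 probes on the array. All 10 members had at least 1 probe well above background, and 16 of the 17 probes exceeded background clearly on 1 array or both.

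There was 1 array per condition, so no test between the conditions could be run, the spread between cultures is not known, and array and treatment cannot be told apart. Both arrays lay on the same slide and were scanned together. Between 56.6% and 60.6% of the spots that were not controls stood well above background, and no spot was saturated. All 12 hepatocyte and HepG2 markers were well above background on both arrays, with a summed level of 275 times the 75th percentile of the array for DMSO and 288 for HTE. Of the markers of other cell types, 1 of 5 for fibroblasts, 2 of 4 for endothelium and 4 of 5 for leukocytes were well above background on both arrays, with summed levels of 0.138 and 0.0846, 0.245 and 0.0859, and 3.14 and 3.35 (DMSO and HTE), and COL1A2, DCN, LUM, CDH5, KDR and CD3E were below background on both. The part of these levels in the results was not tested.

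ATF4 is made when the initiation factor eIF2 is phosphorylated by 1 of 4 kinases that sense amino acid shortage, unfolded proteins in the endoplasmic reticulum (ER), viral RNA, or heme and mitochondrial stress. Phosphorylation slows most protein synthesis and favors translation of the ATF4 mRNA, so that the amount of ATF4 mRNA is only part of its control. ATF4 binds DNA in pairs with other basic leucine zipper (bZIP) proteins, often of the C/EBP family, at the C/EBP-ATF response element, and activates genes of amino acid supply, of feedback on protein synthesis, and, with CHOP, of cell death. In hepatocytes this response is known from amino acid limitation and ER stress.

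The promoters of the members were searched because most of the coding members are known as ATF4 targets or partners. RefSeq promoter sequences (GRCh38.p14, 250 bases before to 50 after a transcription start) held 17 windows for the 10 members. The C/EBP-ATF response element, searched as TGATGNAA on both strands, was found in 3 of these windows, 1 each for CHAC1, ASNS and ATF3, and in 3.62% of all 35116 windows. The cyclic AMP response element, searched as TGACGTCA, was in no member window and in 1.85% of all windows. The ER stress element ERSE (CCAAT and CCACG with 9 bases between) was in no member window and in 0.0769% of all. A match is only a match of letters, and its absence says nothing on binding of a factor. The 3 windows with the element are shown 5′ to 3′ along the gene, with the matching bases in capitals; the match begins 209 bases before the start in CHAC1 (on the opposite strand), 68 bases in ASNS and 191 bases in ATF3.
CHAC1, chr15:40953221-40953520, plus strand: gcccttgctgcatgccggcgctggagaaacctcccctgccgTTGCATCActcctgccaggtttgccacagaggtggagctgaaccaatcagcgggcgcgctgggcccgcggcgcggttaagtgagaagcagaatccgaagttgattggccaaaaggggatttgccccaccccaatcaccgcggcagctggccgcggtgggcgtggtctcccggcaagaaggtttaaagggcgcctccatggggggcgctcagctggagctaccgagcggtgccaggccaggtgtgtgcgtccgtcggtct
ASNS, chr7:97872359-97872658, minus strand: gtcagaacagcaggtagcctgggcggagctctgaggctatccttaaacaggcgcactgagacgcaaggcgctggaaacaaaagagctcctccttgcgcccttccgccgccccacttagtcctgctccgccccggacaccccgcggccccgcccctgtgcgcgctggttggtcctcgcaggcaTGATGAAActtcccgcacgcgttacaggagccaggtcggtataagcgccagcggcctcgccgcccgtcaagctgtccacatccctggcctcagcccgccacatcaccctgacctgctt
ATF3, chr1:212565157-212565456, plus strand: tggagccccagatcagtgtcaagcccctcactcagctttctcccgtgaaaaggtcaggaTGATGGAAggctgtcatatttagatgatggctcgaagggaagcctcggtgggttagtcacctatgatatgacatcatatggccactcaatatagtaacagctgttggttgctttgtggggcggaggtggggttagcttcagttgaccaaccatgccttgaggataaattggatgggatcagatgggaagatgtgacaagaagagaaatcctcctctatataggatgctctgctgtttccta

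All 10 members were higher on the HTE array, where 45.7% of all genes were higher. Of the 10 members, 5 were at least 2-fold higher: VLDLR-AS1, CHAC1, ATF3, SESN2 and DDIT3. With scaling to E1A, the spiked-in control RNA, whose signal was brighter for HTE, 5 of the 10 were higher (VLDLR-AS1, CHAC1, ATF3, SESN2 and DDIT3) and 2 at least 2-fold. Over the whole array, that scaling put 176 genes at least 2-fold higher and 13493 at least 2-fold lower, with a median log2 ratio of -1.07. With 75th percentile scaling, 5.25% of 23753 genes and unnamed transcripts were at least 2-fold higher. Another 3.03% were at least 2-fold lower, and no member was. The log2 ratio of HTE over DMSO had a median of 1.09 over the members, from 0.29 (ASNS) to 2.75 (VLDLR-AS1), against 0.0 over all genes. These ratios are differences between log2 signals after the 75th percentile of each array was subtracted. The members were chosen with earlier results of these data known, so that these counts describe them and are no independent support. A higher level per cell and a shift in the mix of cells in the culture cannot be told apart.

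Only errors of the arrays themselves can be given. The imaging software assigns each signal an error, which came to 0.20 to 0.23 on the log2 ratio for the member probes well above background on both arrays. Among 689 probes with at least 5 usable replicate spots, the SD of the log2 ratio over spots had a median of 0.051, with 0.145 for probes with a mean log2 level below -3 and 0.045 for those above 0. Among 3759 genes with several probes, the SD over different probes had a median of 0.165.

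**Figure D1:**
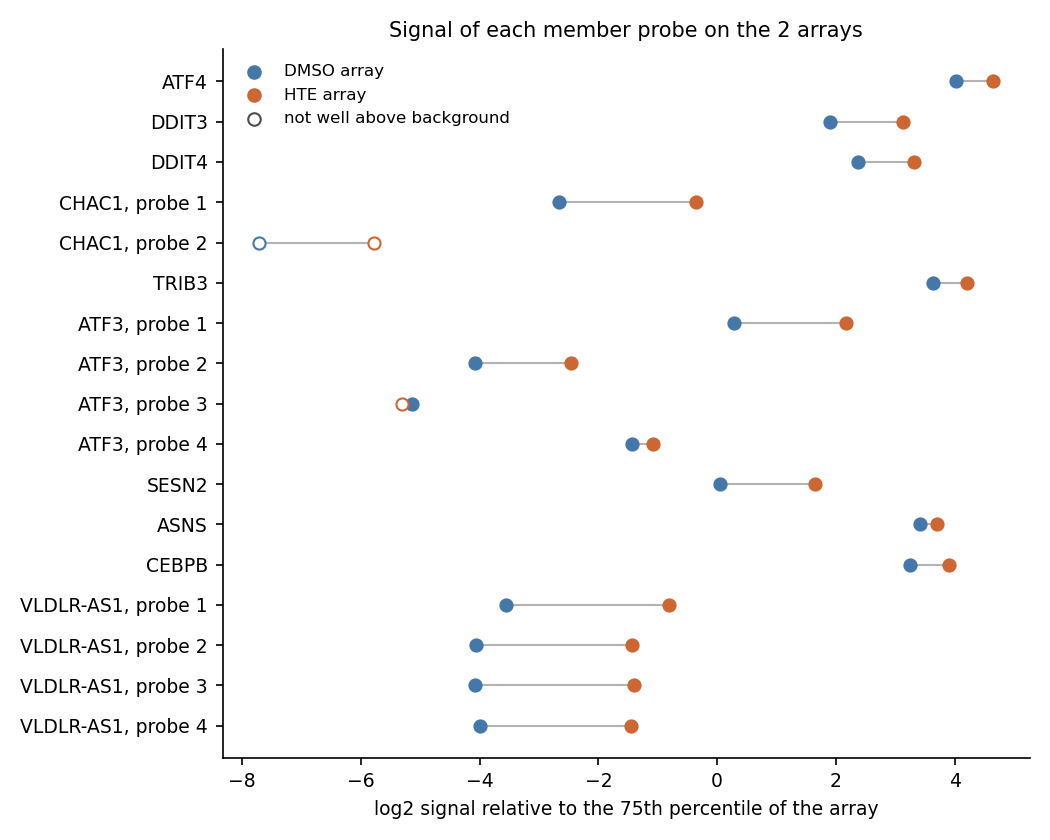
Log2 processed signal, relative to the 75th percentile of the array, of the 17 member probes on the DMSO array (blue) and the HTE array (orange), with 1 point per array and open points where the probe was not well above background. All probes except probe 3 of ATF3 lie further right on the HTE array, and probe 2 of CHAC1 is below background on both.

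The transcription factors of the group differed in how far they were from the DMSO level. ATF4, the factor at the head of the response, had a processed signal of 65509.9 on the DMSO array and 89473 on the HTE array. The HTE signal was the higher one, with a log2 ratio of 0.62 (software error of 0.20), a 1.54-fold difference, and it stayed under 2-fold. DDIT3, which encodes CHOP, a partner of ATF4 that is linked to cell death under lasting stress, had signals of 14953 and 31394. It was 2.36-fold higher on the HTE array, with a log2 ratio of 1.24 (software error of 0.20).

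CEBPB encodes a C/EBP factor that pairs with ATF4 and is abundant in liver. Its probe was spotted 10 times on each array, with signals between 37299 and 39590.2 for DMSO and between 51354 and 55022 for HTE. The log2 ratio was 0.65 ± 0.027 (SD over spots, n = 10 spots of 1 array pair), from 0.61 to 0.71 over the spots. These spots are of 1 RNA and give the error of the measurement only.

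ATF3, a stress-induced factor that binds the same kind of elements, had 4 probes that differed widely. Probe 1 (A_23_P34915), the brightest, had signals of 4870.3 for DMSO and 16152 for HTE, a log2 ratio of 1.90 (3.73-fold). Probe 2 (A_24_P33895) had 238.5 and 648, a log2 ratio of 1.61. Both of these exceeded 2-fold. Probe 4 (A_33_P3214105) had 1495.5 and 1692, a log2 ratio of 0.35, which is under 2-fold. Probe 3 (A_33_P3214096) had 114 for DMSO and 90.2 for HTE, where it was not well above background. Its bound is 1.07-fold lower, well inside its software error of 0.44 on the log2 ratio, so its direction is not settled. Probes 1 to 3 are listed under NM_001040619 and probe 4 under NM_001674, both transcripts of ATF3. The mean log2 ratio over the 4 probes was 0.94 ± 0.97 (SD over probes) with probe 3 entered at its bound of -0.095, so that it is no exact mean. By this value ATF3 is under 2-fold, which leaves 4 members at least 2-fold higher.

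Among the feedback and growth regulators, the values for SESN2 lay farthest apart. SESN2, a sestrin that restrains the growth kinase mTORC1 and is induced by ATF4, NRF2 and p53, had signals of 4171 for DMSO and 11171 for HTE. It was 3.02-fold higher on the HTE array, a log2 ratio of 1.59 (software error of 0.20). DDIT4 (REDD1), which also restrains mTORC1 and is induced by hypoxia and glucocorticoids as well as ATF4, was spotted 10 times, between 19335 and 22127 for DMSO and between 34533 and 36564 for HTE. The log2 ratio was 0.94 ± 0.053 (SD over spots, n = 10 spots of 1 array pair), or 1.91-fold. It lay just under the 2-fold line, with 2 of the 10 spot pairs at or above it. TRIB3, a pseudokinase that is induced by ATF4 and CHOP and dampens both, had signals of 50199 and 65808. The HTE signal was higher, with a log2 ratio of 0.56, a 1.48-fold difference.

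The metabolic genes stood at opposite ends. CHAC1, an enzyme that breaks down glutathione and is a target of ATF4 and CHOP, had signals of 633 on the DMSO array and 2799 on the HTE array at probe 1 (A_33_P3376971). This is a log2 ratio of 2.32 (software error of 0.21), or 4.98-fold, the largest among the coding members. Probe 2 (A_33_P3376965) gave 19.2 and 64.9, stayed too close to background on both arrays, and has no usable ratio. ASNS, asparagine synthetase and one of the best known ATF4 targets, had signals of 43100.4 and 46673. Its log2 ratio of 0.29 (software error of 0.20), a 1.22-fold difference, was the smallest of the 10. Both genes hold a match to the C/EBP-ATF response element in the promoter windows shown above, CHAC1 with the largest coding ratio and ASNS with the smallest.

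VLDLR-AS1 is a noncoding RNA that RefSeq places on the strand opposite to VLDLR, in the same stretch of the genome, and VLDLR itself, the receptor for very-low-density lipoprotein, is an ATF4 target. The 4 VLDLR-AS1 probes had signals of 342, 240.2, 237.8 and 252.6 on the DMSO array and 2041, 1324, 1350.1 and 1302 on the HTE array, in the same order. Every probe was higher on the HTE array, with log2 ratios of 2.75, 2.63, 2.68 and 2.54 and a mean of 2.65 ± 0.088 (SD over probes). The brightest probe was 6.72-fold higher, the largest value among the members. VLDLR, which is no member, had 2 probes that disagreed: A_23_P43476 had signals of 1081 for DMSO and 2664 for HTE, a log2 ratio of 1.47, and A_33_P3284925 had 670.1 and 385, a log2 ratio of -0.63. The 4 probes for the antisense RNA therefore ran one way, whereas those of the coding gene did not.

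**Figure D2:**
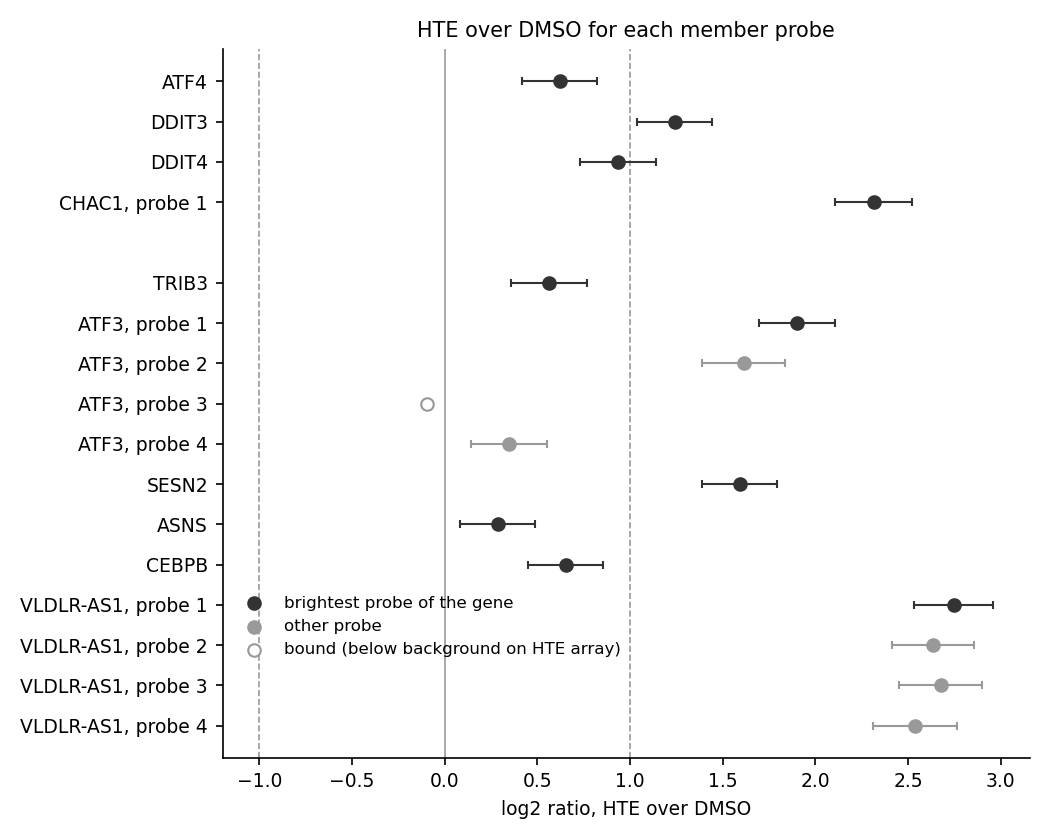
Log2 ratio of HTE over DMSO for the 16 member probes with a usable value; bars are the error the imaging software gives (not a spread between cultures), dashed lines mark 2-fold, black points are the brightest probe of a gene, grey points the others, and the open point is a bound. The 4 VLDLR-AS1 probes lie together between 2.54 and 2.75, and the 4 ATF3 probes spread from -0.095 to 1.90.

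In order of the log2 ratio, VLDLR-AS1 (2.75) was followed by CHAC1 (2.32), ATF3 (1.90), SESN2 (1.59), DDIT3 (1.24), DDIT4 (0.94), CEBPB (0.65), ATF4 (0.62), TRIB3 (0.56) and ASNS (0.29). Each step from VLDLR-AS1 down to DDIT4 (gaps of 0.31 to 0.43) was larger than the software error of the difference (0.29 to 0.30). None of the steps from DDIT4 down to ASNS was (gaps of 0.28, 0.032, 0.059 and 0.28). This error holds no spread between cultures, so whether the order would hold in other cultures is not known. ATF3 keeps its place at probes 1 and 2, at probe 2 (1.61) with a gap to SESN2 that is under the error, and loses it at probes 3 and 4. Among the 21000 genes well above background on both arrays, VLDLR-AS1 ranked 34 from the highest ratio, CHAC1 79, ATF3 149, SESN2 254, DDIT3 518 and DDIT4 1049. CEBPB ranked 2083, ATF4 2247, TRIB3 2644 and ASNS 5340, with 9.91% of genes above CEBPB and 25.4% above ASNS. With 2 arrays, no gene can be ranked by likeness of its pattern to that of a member.

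**Figure D3:**
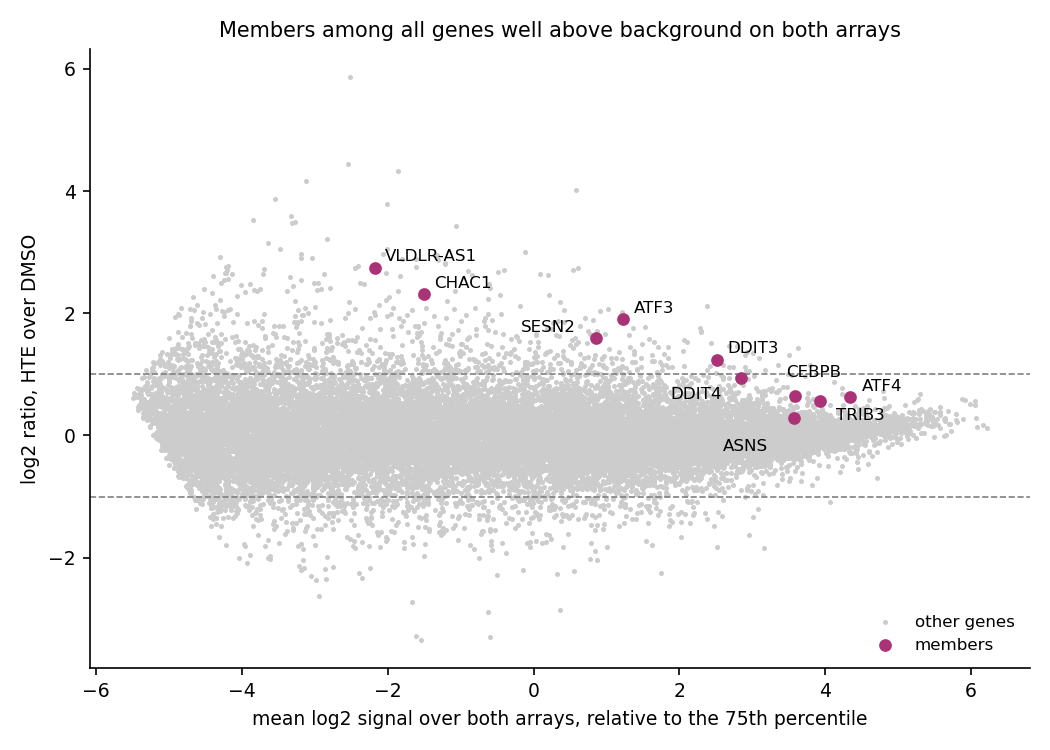
Log2 ratio of HTE over DMSO (vertical) against the mean log2 signal over both arrays (horizontal, relative to the 75th percentile) for the 21000 genes well above background on both arrays, with the 10 members in purple and 2-fold marked by dashed lines. All members lie above 0 and 5 lie above the upper line, from DDIT3 at 1.24 to VLDLR-AS1 at 2.75.

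The genes for the eIF2 kinases and the eIF2 cycle, most of which act upstream of ATF4, lay on both sides of 0. Of 18 genes for the eIF2 kinases and the eIF2 cycle, 17 were measured, 7 higher and 10 lower on the HTE array, where 45.7% of all genes were higher. The median log2 ratio was -0.19 (-0.36 without scaling and -1.27 with spike-in scaling) against 0.0 for all genes. The 4 kinases had log2 ratios of -0.21 (EIF2AK1, which senses heme), -0.53 (EIF2AK2, which senses double-stranded RNA), 0.19 (EIF2AK3 or PERK, which senses ER stress) and 0.13 (EIF2AK4 or GCN2, which senses uncharged tRNA). PPP1R15A, also called GADD34, the phosphatase subunit that reverses eIF2 phosphorylation and a target of CHOP, had signals of 742 for DMSO and 2098 for HTE. It was the 1 gene of the 17 at least 2-fold higher (5.25% of all genes were), with a log2 ratio of 1.67 (3.18-fold), and its constitutive relative PPP1R15B had -0.28. No gene of the list was at least 2-fold lower.

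Most other targets of ATF4 and CHOP were higher on the HTE array. All 42 genes of the list were measured, 40 higher and 2 lower, where 45.7% of all genes were higher. Without scaling, every log2 ratio is 0.17 lower, which takes PYCR1, SLC7A5, NARS1, PSAT1, VEGFA and CEBPG below 0. Of the 42, 10 were at least 2-fold higher (5.25% of all genes) and none at least 2-fold lower (3.03%). The median log2 ratio was 0.39, with 0.21 without scaling and -0.70 with spike-in scaling. KLHL24 had the largest ratio (2.39), and the other genes past 2-fold were PPP1R15A (1.67), VLDLR (1.47 at its brighter probe), BBC3 (1.45), CTH (1.33), NDRG1 (1.33), SLC6A9 (1.27), NUPR1 (1.16), SLC3A2 (1.11) and SQSTM1 (1.05). BBC3 encodes PUMA, a cell death effector, CTH an enzyme of cysteine synthesis, SLC6A9 a glycine transporter, SLC3A2 the heavy chain of several amino acid transporters, and SQSTM1 an autophagy receptor. BCL2L11, the cell death gene for BIM, was lowest (-0.48), and ATF5, a bZIP relative that is translated like ATF4, had -0.28. Genes of amino acid supply in the list ranged widely, from 0.0070 for PYCR1, 0.032 for SLC7A5, 0.14 for PSAT1 and 0.55 for PHGDH to 0.73 for SLC38A2 and 0.99 for SLC7A11 and to CTH, SLC6A9 and SLC3A2 past 2-fold. The secreted hormones of this response were both higher, GDF15 only slightly, with a log2 ratio of 0.26 (1.2-fold). FGF21 had a bound of 0.90 on the log2 ratio (at least 1.87-fold). It was well above background on the HTE array only (signal of 110.4, against 45.9 for DMSO).

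The bZIP partners and relatives of ATF4, CHOP, ATF3 and CEBPB were spread in both directions. All 26 were measured, 15 higher and 11 lower on the HTE array, where 45.7% of all genes were higher. Of the 26, 7 were at least 2-fold higher (5.25% of all genes) and 1 at least 2-fold lower (3.03%). The median log2 ratio was 0.30 (0.13 without scaling and -0.78 with spike-in scaling). JUND (1.86), CREBRF (1.66), FOS (1.41), MAFF (1.36), BATF3 (1.31), BATF (1.25) and FOSL2 (1.22) were past 2-fold. Most of these belong to the AP-1 and small MAF families, whose products can pair with ATF3 or ATF4. CEBPA, the C/EBP factor of mature hepatocytes, was the 1 gene at least 2-fold lower, with signals of 27382 for DMSO and 10849 for HTE and a log2 ratio of -1.16. CEBPB (0.65) and CEBPA thus lay on opposite sides of 0, though with spike-in scaling CEBPB (-0.43) was below 0 too, and CEBPG (0.16), CEBPD (-0.26) and CEBPE (-0.69) were each under 2-fold.

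The closest relatives of the members were mostly smaller in ratio or lower. Of 12 paralogs and neighbours, 11 were measured, 6 higher and 5 lower, where 45.7% of all genes were higher. The median log2 ratio was 0.16 (-0.012 without scaling, -0.049 without a filter on dim probes and -0.93 with spike-in scaling). This list shares genes with the lists before it. CHAC2, the relative of CHAC1 that is active in unstressed cells, had signals of 6230.2 for DMSO and 4509 for HTE and a log2 ratio of -0.29, against 2.32 for CHAC1. SESN1, a sestrin under p53 control, had 1379 and 952 and a log2 ratio of -0.36, against 1.59 for SESN2, and SESN3 (39.4 and 19.3) was too close to background on both arrays. TRIB1 and TRIB2, the other tribbles pseudokinases, had 0.43 and 0.56, and TRIB3 had 0.56. JDP2, a repressor closely related to ATF3, had 0.82. No difference between a member and its paralog was tested.

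The ATF6 and XBP1 arms of the unfolded protein response, which induce ER chaperones beside the ATF4 arm, had a median near 0, with more genes lower than higher. All 24 genes were measured, 8 higher, 15 lower and 1, ERN1, with only a bound that gives no direction. Over all genes, 45.7% were higher, 5.25% at least 2-fold higher and 3.03% at least 2-fold lower. The median log2 ratio of the 24 was -0.078 (-0.25 without scaling and -1.16 with spike-in scaling). HSPA5 (BiP), the main ER chaperone, had signals of 4689 for DMSO and 2038 for HTE, a log2 ratio of -1.03, and was the 1 gene at least 2-fold lower. CREB3L3, a liver factor processed like ATF6, was the 1 gene at least 2-fold higher (1.37). XBP1, spotted 10 times, had -0.23, CRELD2 -0.78 and DNAJB9 0.52. Genes next to ASNS and CHAC1 in asparagine and glutathione metabolism had 7 of 14 measured genes higher and 7 lower, none past 2-fold, with a median of 0.015 (-0.16 without scaling and -1.07 with spike-in scaling), and ASRGL1, an asparaginase, was lowest (-0.56).

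**Figure D4:**
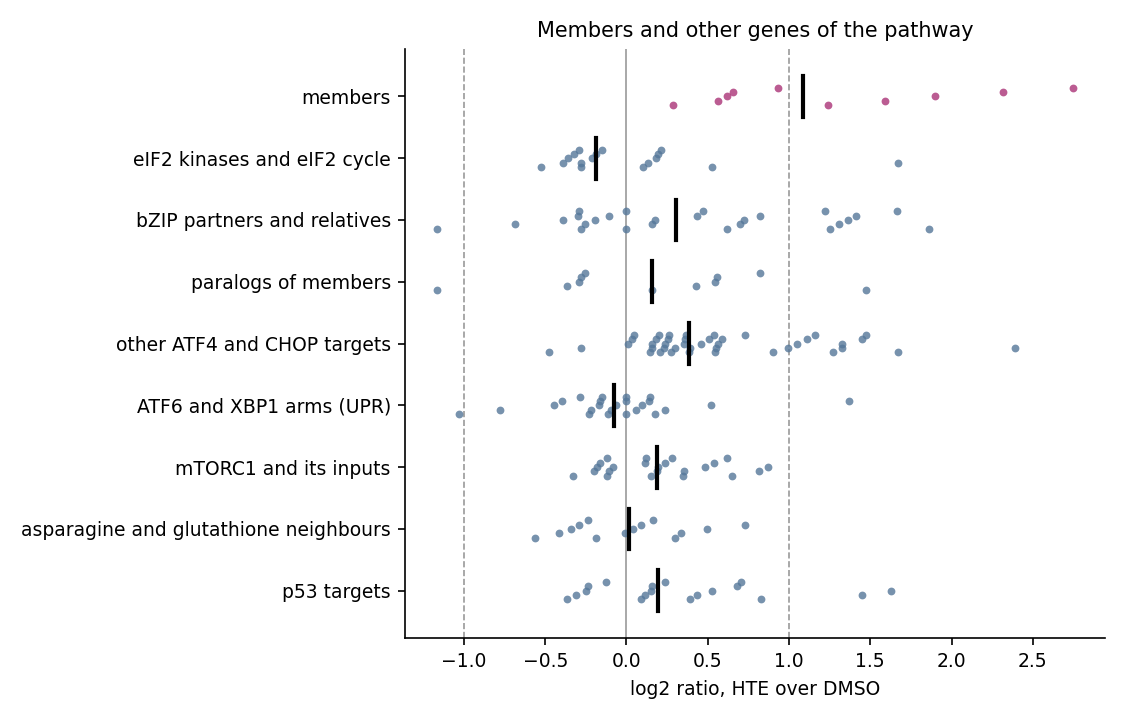
Log2 ratio of HTE over DMSO for the 10 members (purple) and for the measured genes of 8 other lists (blue), with 1 point per gene at its brightest probe, black bars at the medians and dashed lines at 2-fold; a few genes stand in more than 1 list. The median is 1.09 for the members, 0.39 for the other ATF4 and CHOP targets and -0.078 for the ATF6 and XBP1 arms.

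The size of the ratios depended on how the arrays were put on one scale. The 75th percentile lay at signals of 4020.0 (DMSO) and 3570.3 (HTE), a log2 difference of -0.17, whereas the E1A spike-in RNA had a log2 difference of 0.91, so that spike-in scaling lowers every ratio by 1.08. It placed ASNS at -0.80, TRIB3 at -0.52, ATF4 at -0.46, CEBPB at -0.43 and DDIT4 at -0.15, and left DDIT3 at 0.16, SESN2 at 0.51, ATF3 at 0.82, CHAC1 at 1.23 and VLDLR-AS1 at 1.66. A shift common to all genes leaves the order of the members as it was. Under normexp background correction, quantile normalization, scaling to the median and no scaling, all 10 members stayed higher and the count at least 2-fold higher was 5.

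**Figure D5:**
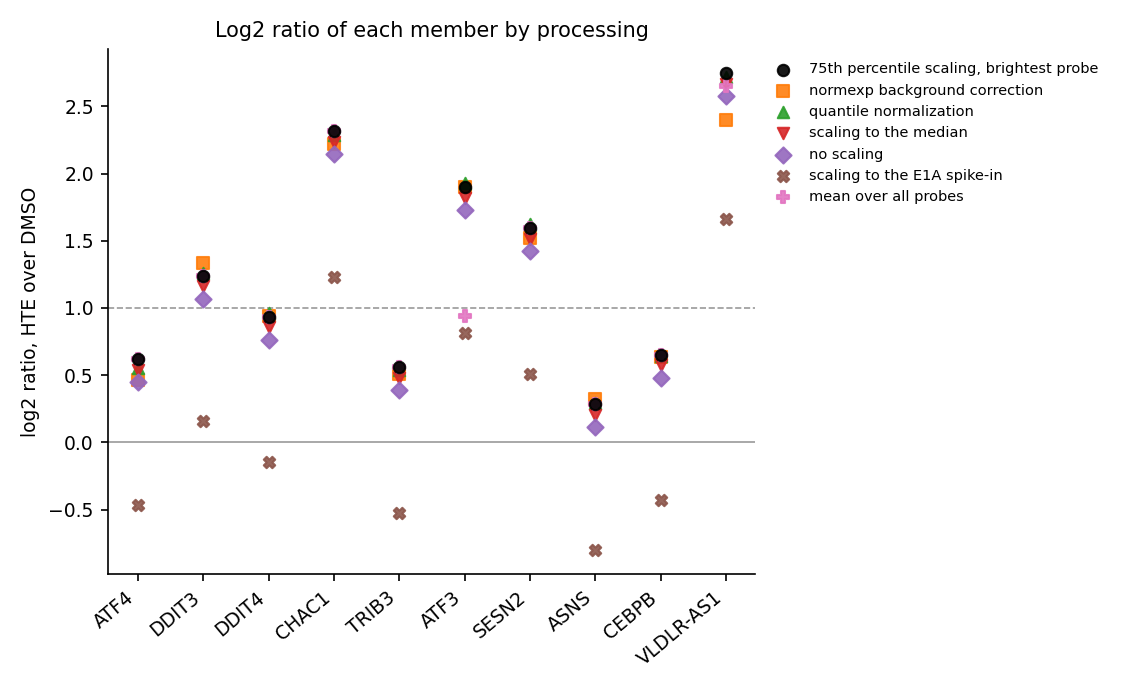
Log2 ratio of HTE over DMSO for each member under 7 ways of processing (symbols), with the value used in the text in black, a solid line at 0 and a dashed line at 2-fold. Only the spike-in scaling (crosses) takes members below 0, namely ATF4, DDIT4, TRIB3, ASNS and CEBPB, and the mean over all probes lowers ATF3 to 0.94.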

How the data were processed

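Expression was measured on 1-colour (Cy3) Agilent SurePrint G3 human arrays, 1 for DMSO-treated and 1 for HTE-treated HepG2 cells. The authors deposited Agilent Feature Extraction output (version 11.5.1.1 per the file headers, 10.7 per the labels), in which the processed signal is an intensity, background-subtracted and detrended by that software and not scaled between arrays. Deposited with it were 0 or 1 flags for spots well above background.

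From these intensities, control and outlier spots were left out, log2 was taken, the 75th percentile of the non-control spots was subtracted on each array, and replicate spots were averaged. A probe was kept (29681 were) if at least 0.5 of its spots carried that flag on either array. Where it failed on 1 array, its ratio is a bound, set there by its own signal or by the dimmest flagged signal, whichever was higher. Probes were named through RefSeq accessions in the GRCh38.p14 gene table (28146 probes matched), and the brightest probe stands for a gene. The array design is on another build, so the only coordinates given are those of the RefSeq promoter windows. The cutoff was 2-fold, as in the study's methods, and no test was possible with 1 array per condition.

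The members and gene lists were chosen with earlier results of these data known. Named genes are the 10 members, each list's extremes in both directions (1 of these genes is not reported here), genes named for their role (eIF2 kinases, relatives of members), and, chosen after their values were seen, the other genes past 2-fold and single examples in the lists. Alternatives were other scalings, normexp background correction (offset 50, on median signals, as no mean signal is in the files used), other filters, outlier spots kept, other probes, and cutoffs of 1.5-fold and 3-fold. Before use, only the main route from spots to gene ratios was tried on simulated data. The bounds, the alternatives, the list summaries and the promoter search were not tested in this way. The software was Python 3.11.15 with pandas 2.3.3, numpy 2.4.6 and matplotlib 3.10.9, and limma 3.58.1 in R 4.3.3.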

Additional observations from a re-analysis of the deposited data

How the results depend on the processing

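No paired analysis was possible because each condition has 1 array. The median log2 ratio of the members (1.09) was 1.01 with scaling to the median, 0.92 without scaling, 0.94 with the mean over all probes and 0.0040 with spike-in scaling. The count of members at least 2-fold higher (5) was 2 with spike-in scaling, 4 with the mean over all probes, 8 at 1.5-fold and 4 at 3-fold, and 5 under the other settings run. The count over all 23753 genes and unnamed transcripts was 1248. It became 176 with spike-in scaling, 1238 with the mean over all probes, 2953 at 1.5-fold and 422 at 3-fold. One value changed sign for a member past 2-fold at its brightest probe: ATF3 at probe A_33_P3214096, with a bound of -0.095 (software error of 0.44). Over the settings other than spike-in scaling and other probes, the log2 ratio lay between 1.07 and 1.33 for DDIT3, 2.14 and 2.32 for CHAC1, 1.42 and 1.62 for SESN2, and 2.40 and 2.75 for VLDLR-AS1.

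Over the whole array, 1248 genes at least 2-fold higher and 720 lower became 2953 and 2504 at 1.5-fold, 422 and 129 at 3-fold, 825 and 468 with normexp background correction, 2390 and 1869 without a filter on dim probes, and 176 and 13493 with spike-in scaling. There were 1209 lower without scaling and 1321 lower with the own value of dim probes. Higher genes made up 63.4% of those past 2-fold, 42.2% without scaling, 50.4% with the own value of dim probes and 1.29% with spike-in scaling. The median of all genes moved from 0.0 to -0.16 without scaling, -1.07 with spike-in scaling and 0.21 without a filter. The cause of these changes was not tested, other than the common shift that a scaling applies. Signal over background limits, among others, the second CHAC1 probe, the third ATF3 probe and FGF21. Some genes past 2-fold were well above background on both arrays but dim on the DMSO array. Their log2 levels there were -5.53 for FOS, -5.35 for FOSL2, -4.11 for KLHL24, -3.935 for JUND and -3.55 for VLDLR-AS1.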

Other observations

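SESN2, DDIT4 and ATF3 are also known as p53 targets, and a list of 18 p53 targets was fully measured. Of these, 13 were higher and 5 lower on the HTE array, where 45.7% of all genes were higher. Of the 18, 2 were at least 2-fold higher (5.25% of all genes) and none at least 2-fold lower (3.03%). The median log2 ratio was 0.20 (0.024 without scaling, 0.29 with the mean over all probes and -0.89 with spike-in scaling). TP53INP1, a p53-induced autophagy and cell death factor, had the largest ratio (1.63), followed by BBC3 (1.45), which the list of ATF4 and CHOP targets also holds. CDKN1A, the p21 inhibitor of the cell cycle, had 0.83, and MDM2, which degrades p53, had -0.31. SESN1, the sestrin most tied to p53, was lowest (-0.36), on the other side of 0 from SESN2 (1.59).

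SESN2 and DDIT4 act on mTORC1, and 23 of the 24 genes of mTORC1 and its inputs were measured. Of these, 15 were higher and 8 lower on the HTE array, where 45.7% of all genes were higher. None was past 2-fold (5.25% of all genes were at least 2-fold higher and 3.03% lower). The median log2 ratio was 0.19 (0.017 without scaling and -0.90 with spike-in scaling). RRAGD (0.87) and RRAGC (0.82), small GTPases that bring mTORC1 to the lysosome, had the largest ratios. TSC1, a subunit of the complex through which DDIT4 acts, had 0.65 and TSC2 had 0.35. DEPTOR, an inhibitor bound to mTOR, was lowest (-0.33), and MTOR itself had 0.28.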
